A study of Homo sapiens with 4 samples.

Results

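The BCL2 family and the apoptosome were examined through 10 genes that control or carry out the mitochondrial pathway of cell death: APAF1, BCL2L1, MCL1, BAX, BAK1, BID, BCL2L11, PMAIP1, BBC3 and CASP9. They were chosen by name, and every probe set that the platform annotation gives to 1 of them was taken, 32 of the 54613 non-control probe sets. Of these, 31 are annotated to 1 gene, while the remaining probe set, the sole one for BBC3, is annotated also to MIR3190 and MIR3191, so its values are given apart and enter no count. The arrays hold 19775 genes in all with a probe set of their own.

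The study profiled HCCLM3, a line derived from human hepatocellular carcinoma, after magnetic sorting for the surface adhesion molecule EpCAM. EpCAM-negative cells were transfected with 100 nM miR-429 mimic, a synthetic form of the mature microRNA, or with 100 nM NC mimic, a non-targeting control. EpCAM-positive cells were given 40 µM antagomir-429, a cholesterol-conjugated antisense RNA against miR-429, or 40 µM NC antagomir, and all cells were treated for 4 days. Each of these 4 groups is 1 array, so differences between groups have no replicate check, no test was possible, and precision is limited by having so few arrays. All groups come from a single line, and the sort gate, the reagent, its delivery and its dose differ together between the EpCAM-negative and EpCAM-positive arms.

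In mitochondrial apoptosis the effectors BAX and BAK1 permeabilise the outer mitochondrial membrane, which lets cytochrome c into the cytosol. Prosurvival proteins such as BCL-xL, made from BCL2L1, and MCL1 hold the effectors in check, and BH3-only proteins (BID, BIM from BCL2L11, NOXA from PMAIP1 and PUMA from BBC3) bind the prosurvival proteins or activate the effectors. Cytochrome c then makes APAF1 assemble into the apoptosome, on which the initiator caspase CASP9 is activated. Hepatocytes depend on BCL-xL and MCL1 for survival, and liver cancers often carry high levels of both.

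The microRNA that the treatments supplied or blocked is shown first with its family, because the seed, bases 2 to 8 in capitals, decides most of the messages that a microRNA recognises. The mature sequences are those of RefSeq, build GRCh38.p14, all on the plus strand: miR-429 at chr1:1169055-1169076, miR-200b-3p at chr1:1167160-1167181, miR-200a-3p at chr1:1167916-1167937, miR-200c-3p at chr12:6963742-6963764 and miR-141-3p at chr12:6964155-6964176.
hsa-miR-429: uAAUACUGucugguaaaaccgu
hsa-miR-200b-3p: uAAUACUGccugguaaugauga
hsa-miR-200c-3p: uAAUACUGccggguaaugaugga
hsa-miR-200a-3p: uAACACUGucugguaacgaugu
hsa-miR-141-3p: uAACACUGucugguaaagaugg
The upper 3 sequences share the seed AAUACUG and the lower 2 share AACACUG. No transcript sequence was used here, so whether any member carries a match to this seed was not examined.

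Signals are MAS5 signals scaled by the authors, and a difference is the log2 ratio between a pair of arrays. A probe set was used when its mean log2 signal over the 4 arrays reached 5.73, a signal of 52.9, here called the floor, the median of that mean over the non-control probe sets. Of the 31 probe sets, 30 passed. The exception was the MCL1 probe set 227175_at, which lay under the floor on all 4 arrays, at signals of 13.0 in miR-429 mimic cells, 14.8 in NC mimic cells, 30.1 in antagomir-429 cells and 15.5 in NC antagomir cells. On all 4 arrays 26 of the 30 were at or above the floor. The other 4, the 3 of APAF1 and 1555372_at of BCL2L11, passed with 1 array under it, and a fold against that array is taken against the floor and written as "at least". For scale, the robust SD of log2 ratios among probe sets of like signal (20 bins by mean signal) is given below as the scatter. It measures how far probe sets of that brightness differ between the same 2 arrays and is not a replicate error. In the maker's naming, the suffix _s_at marks probes that match several transcripts and _x_at marks probes that may cross-hybridise, so probe sets of 1 gene need not read the same transcripts.

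The arrays were alike in scale, with a trimmed mean signal of 500.1 on each and median signals between 62.7 and 67.1. EPCAM, the gene of the sort, had a signal of 1235 on the NC antagomir array of EpCAM-positive cells and 1106 on the NC mimic array of EpCAM-negative cells, so the controls of the 2 gates differed little in its message. It was higher with the mimic, at 3838 in miR-429 mimic cells (log2 ratio 1.80 over the NC mimic), and 913 in antagomir-429 cells. The line expressed the epithelial keratins KRT8 and KRT18 strongly, AFP at signals between 91.5 and 119, and neither ALB nor KRT19 passed the floor. Of 12 listed markers of leukocytes, endothelium and fibroblast stroma 10 were measured and 6 passed the floor, and the summed signal of the 10 was 8283 in miR-429 mimic cells, 7773 in NC mimic cells, 8282 in antagomir-429 cells and 11123 in NC antagomir cells. None was at 0, and most of the sum was COL1A1. PTPRC, which defines leukocytes, lay under the floor on every array, as did CD14, but CD3E, also a listed leukocyte marker, passed. Its signals were 136 in miR-429 mimic cells, 54.8 in NC mimic cells, 60.7 in antagomir-429 cells and 88.3 in NC antagomir cells. Of the endothelial markers PECAM1 and VWF passed and CDH5 did not. The part of other cell types in the results below was not tested. In bulk RNA, fewer cells that express a gene and less RNA per cell cannot be told apart.

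With the miR-429 mimic, the member probe sets that differed most from the NC mimic belonged to APAF1 and BCL2L11. The median log2 ratio without its sign was 0.37 over the 30 member probe sets and 0.36 over all single-gene probe sets past the floor. By the measured signals, 3 of 30 member probe sets were past 2-fold higher and 1 past 2-fold lower (13.3%). The background over the 22829 single-gene probe sets past the floor was 10.7%, of which 6.61% higher and 4.14% lower. Those 4 were 3 probe sets of APAF1, with 2 higher and 1 lower, and 1 higher probe set of BCL2L11. One of the higher ones, APAF1 211553_x_at, passed 2-fold only through an NC mimic signal under the floor. With all signals under the floor raised to it, which makes such ratios lower bounds, 2 were higher and 1 lower, against 8.19% of all probe sets. The median log2 ratio over 9 genes, each by its brightest probe set, was -0.23, against -0.00161 over all 13180 genes. Without the sign it was 0.47, against 0.34 over all genes. Of the 9, 7 lay below 0 and 2 above, where 49.9% of all genes lay above 0. With the NC antagomir array as the control instead, the signed gene median was 0.15, and only BAX, BCL2L11 and CASP9 lay below 0. The sign of the median thus depends on which control array is used. The NC antagomir array differs also in sort gate, reagent, delivery and dose, so the change cannot be assigned to either control array. Over probe sets 19 of 30 were below 0 and 11 above, where 52.9% of all probe sets lay above 0. The 19 became 21 with each array centred on its median and 20 with quantile normalization.

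With antagomir-429, 2 of the 30 were at least 2-fold higher and 0 lower (6.67%, against 8.42% of all, 4.32% higher and 4.10% lower), and the same counts stood with signals raised to the floor (5.36% of all). The 2 were single probe sets of BCL2L1 and BCL2L11, each with sister probe sets that lay elsewhere. The gene median was 0.08, against 0.01 over all genes. The most negative gene was PMAIP1, which stood just inside 2-fold by both of its probe sets. Between the control arrays, NC antagomir (EpCAM-positive) over NC mimic (EpCAM-negative), 2 were higher and 4 lower (20%, against 10.1% of all, 4.82% higher and 5.23% lower), with a gene median of -0.27 against -0.02. All 6 belonged to BCL2L11, MCL1 and APAF1. This comparison shares a control array with each of the other comparisons, and its values depend on theirs.

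**Figure D1:**
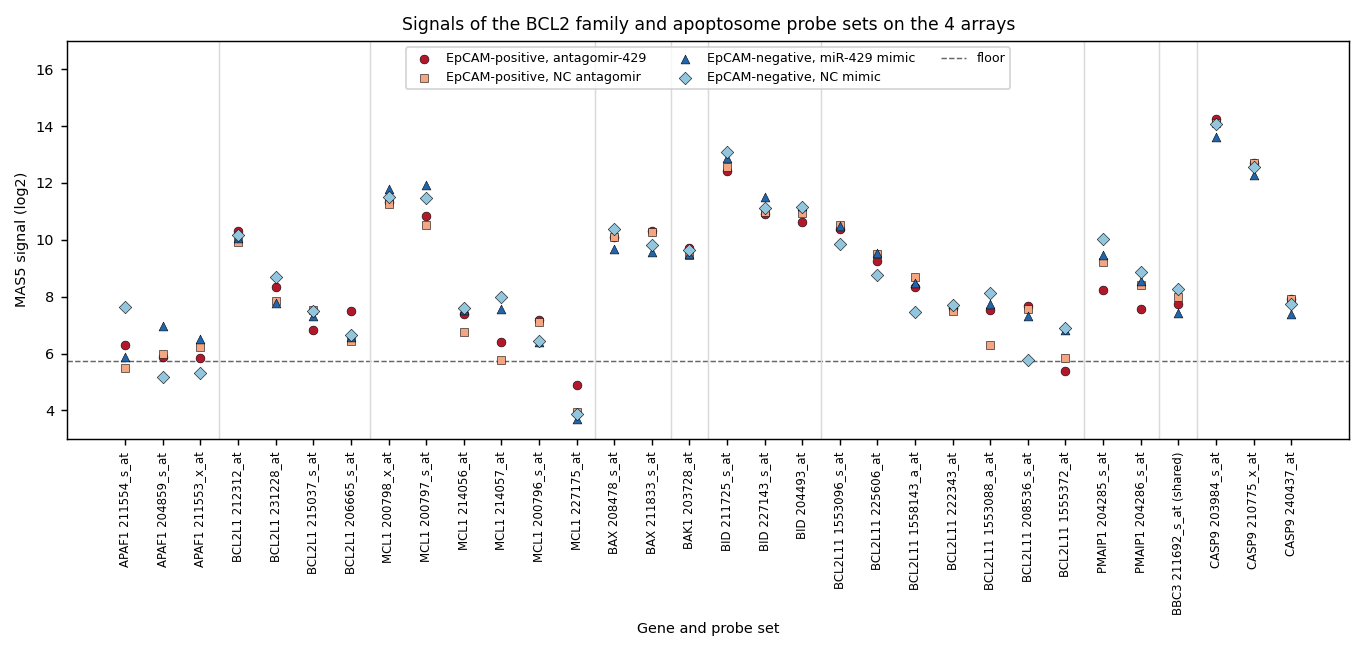
MAS5 signal on the log2 scale (vertical axis) of all 32 probe sets, grouped by gene (horizontal axis), with 1 point for each of the 4 arrays and the floor of 5.73 as a dashed line. The 3 APAF1 probe sets lie close to the floor, while those of BID, CASP9 and the upper pair of MCL1 lie far above it, except CASP9 240437_at.

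APAF1, the scaffold of the apoptosome, was the member whose probe sets disagreed most with the mimic. Probe set 211554_s_at had a signal of 58.5 in miR-429 mimic cells and 200.5 in NC mimic cells, and of 78.4 in antagomir-429 cells and 45.2 in NC antagomir cells. The NC mimic array was the highest of the 4 and stood apart from the rest. Probe set 204859_s_at had 126 in miR-429 mimic cells and 36.5 in NC mimic cells, and 58.7 in antagomir-429 cells and 63.5 in NC antagomir cells. Probe set 211553_x_at had 92.2 and 39.6 on the miR-429 mimic and NC mimic arrays, and 56.8 and 75.5 on the antagomir-429 and NC antagomir arrays. In both of these the NC mimic array was the lowest and the miR-429 mimic array the highest. The log2 ratios with the mimic were therefore -1.78 by the first (3.43-fold lower), 1.78 by the second (at least 2.38-fold higher) and 1.22 by the third (at least 1.74-fold higher), against a scatter of 0.88 for the first and 0.91 for the others. A gene with probe sets past 2-fold in both directions was uncommon: 65 of the 5837 genes with several probe sets past the floor were so with the mimic (1.11%). With signals raised to the floor APAF1 was still one of them, among 23 (0.394%). The range within APAF1 was then at least 3.03 log2 units, wider than in 99.7% of the 1468 genes with 3 probe sets past the floor when these were treated alike. By the measured signals it was 3.56.

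With antagomir-429 the APAF1 log2 ratios were 0.79, -0.11 and -0.41, none past 2-fold. Between the controls they were -2.15 (at least 3.79-fold lower on the NC antagomir array), 0.80 and 0.93, where for the last pair it was the NC mimic array that fell short of the floor. With the NC antagomir array as the control for the mimic, the first probe set had 0.37, so its direction with the mimic depends on which control array is used. These signals give APAF1 no direction as a gene: the call depends on which of its probe sets is read.

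CASP9, the caspase that APAF1 activates, was the opposite case, with 3 probe sets that lay close together. Its brightest, 203984_s_at, had signals of 12499 in miR-429 mimic cells and 17255 in NC mimic cells, and 19641 in antagomir-429 cells and 17708 in NC antagomir cells. The miR-429 mimic array was the lowest for all 3 CASP9 probe sets, and the antagomir-429 array the highest. The log2 ratios of 203984_s_at, 210775_x_at and 240437_at with the mimic were -0.47, -0.26 and -0.36, a range of 0.20 that 9.74% of genes with 3 probe sets undercut. With antagomir-429 they were 0.15, 0.01 and 0.02, of which the lower pair turned negative with median centring (-0.02 each) and 240437_at also with quantile normalization (-0.03). None was near 2-fold, and the brightest lay at less than 2 times its scatter of 0.25 with the mimic.

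**Figure D2:**
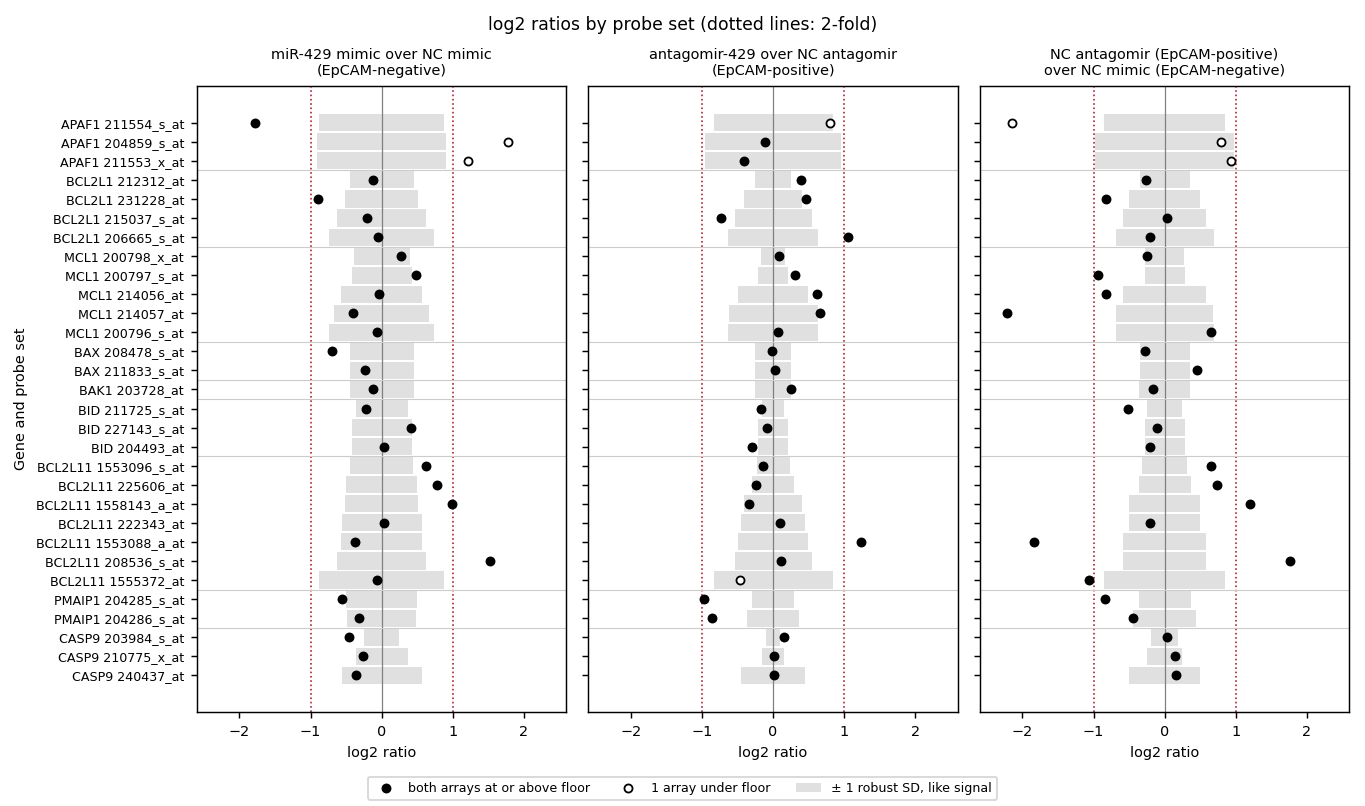
log2 ratio (horizontal axis) of each of the 30 probe sets past the floor (vertical axis) in the 3 comparisons, with open circles where 1 array was under the floor, grey bars for ± 1 robust SD of probe sets of like signal and dotted lines at 2-fold. The APAF1 probe sets stand on both sides of 0 with the mimic, at -1.78, 1.22 and 1.78, while the 3 of CASP9 lie within a range of 0.20 there.

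Among the prosurvival genes, BCL2L1 encodes BCL-xL and was measured by 4 probe sets. The brightest, 212312_at, had signals of 1070.4 in miR-429 mimic cells and 1164 in NC mimic cells, and 1268 in antagomir-429 cells and 967 in NC antagomir cells. The 2 mimic arrays differed little, and the antagomir-429 array was the highest of the 4. The second, 231228_at, had 221 in miR-429 mimic cells and 413 in NC mimic cells, and 321 in antagomir-429 cells and 232 in NC antagomir cells. All 4 BCL2L1 log2 ratios with the mimic were below 0, at -0.12, -0.90, -0.21 and -0.05 in order of brightness, all but that of 231228_at within the scatter. That of 231228_at passed 2-fold with median centring (-1.01) and with quantile normalization (-1.01). With the NC antagomir array as the control instead, the 4 were 0.15, -0.07, -0.24 and 0.16. With antagomir-429 they were 0.39, 0.47, -0.73 and 1.05. The last belongs to 206665_s_at, with signals of 180.1 in antagomir-429 cells and 86.8 in NC antagomir cells, or 2.08-fold, where the other 3 arrays lay between 86.8 and 100.5. Because 215037_s_at pointed the other way, at 112 and 187, BCL2L1 had a range of 1.79, wider than in 85.0% of the 614 genes with 4 probe sets.

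MCL1, a short-lived prosurvival protein, had 5 probe sets past the floor. By 200798_x_at its signals were 3506 in miR-429 mimic cells and 2907 in NC mimic cells, and 2589 in antagomir-429 cells and 2445 in NC antagomir cells. By 200797_s_at they were 3938 and 2814 on the miR-429 mimic and NC mimic arrays, and 1821 and 1466 on the antagomir-429 and NC antagomir arrays. For both, each EpCAM-negative array lay above each EpCAM-positive array. With the mimic the log2 ratios of the 5 ran from -0.40 to 0.48, with the 2 brightest above 0. With antagomir-429 all 5 were above 0, under both rescalings too, with measured ratios between 0.06 and 0.66. Those of 200798_x_at and 200796_s_at were 0.49 and 0.10 times their scatter. Of the 206 genes with 5 probe sets 10.2% had 1 sign throughout. With the NC mimic array as the control instead, which differs also in sort gate and reagent, they were -0.17, -0.63, -0.20, -1.56 and 0.72 in order of brightness. The MCL1 direction with antagomir-429 thus depends on which control array is used.

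Between the controls, 4 of the 5 MCL1 probe sets were lower on the NC antagomir array than on the NC mimic array. The log2 ratio was -0.25 by 200798_x_at, -0.94 by 200797_s_at, -0.82 by 214056_at and -2.22 by 214057_at. The last had signals of 54.0 in NC antagomir cells and 252 in NC mimic cells, or 4.67-fold lower. The dimmest, 200796_s_at, was higher instead, with 138 and 87.7 (0.65). The 200797_s_at and 214057_at ratios were 3.36 and 3.24 times their scatter. At or past 3 times the scatter lay 4 of 30 member probe sets in this comparison, against 1.76% of all, and the other 2 were of BCL2L11. With the mimic 0 did, against 1.34%.

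**Figure D3:**
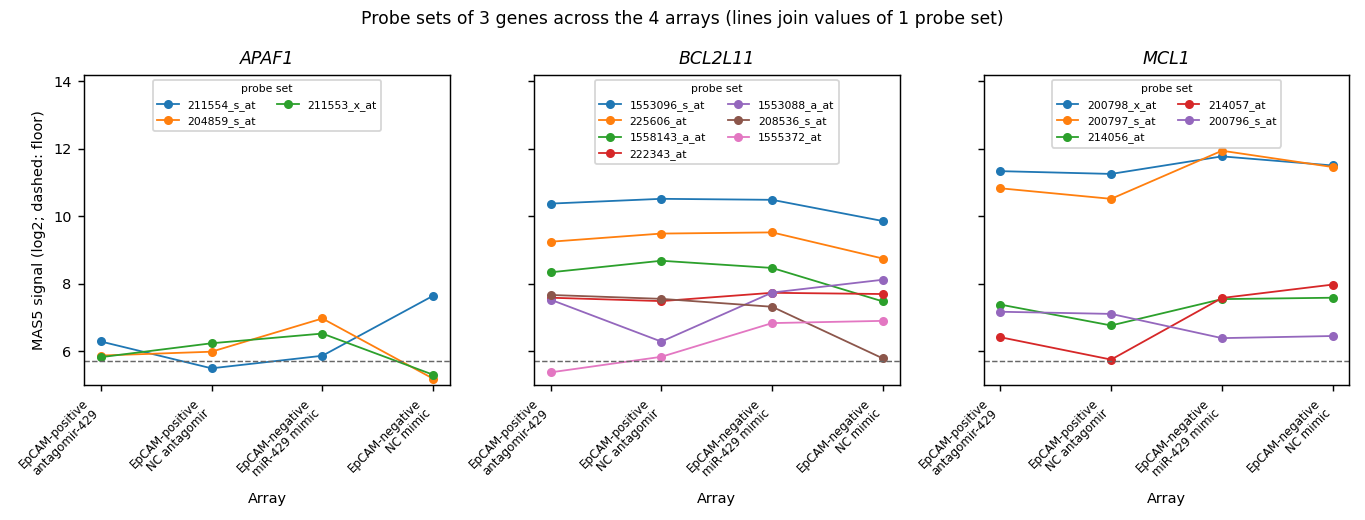
MAS5 signal on the log2 scale (vertical axis) of each APAF1, BCL2L11 and MCL1 probe set past the floor across the 4 arrays (horizontal axis), with lines that join the values of 1 probe set. The NC mimic array holds the low point of 4 BCL2L11 probe sets and the high point of 211554_s_at of APAF1, and 4 of 5 MCL1 probe sets are lower on the NC antagomir array than on the NC mimic array.

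Of the effectors, BAX was lower with the mimic by both probe sets, the dimmer of them within the scatter, and BAK1 lay within the scatter too. BAX had signals of 827 in miR-429 mimic cells and 1342 in NC mimic cells by 208478_s_at (log2 ratio -0.70), and 758 and 894 by 211833_s_at (-0.24), and the miR-429 mimic array was the lowest for both. The first ratio, 1.62-fold, was 1.55 times its scatter, and the second was 0.53 times its scatter. After that of APAF1 the first was the most negative of the 9 gene values. With antagomir-429 and the NC antagomir BAX had 1096 and 1106 by the first (-0.01) and 1254 and 1229 by the second (0.03). The 2 probe sets thus stood close together in the antagomir pair and on opposite sides of 0 between the controls, at -0.28 and 0.46. BAK1 had 1 probe set, 203728_at, with signals of 727 in miR-429 mimic cells and 790.1 in NC mimic cells, and 839.7 in antagomir-429 cells and 708 in NC antagomir cells. Its log2 ratios of -0.12 and 0.25 were no larger than the scatter of 0.45 with the mimic and 0.25 with the antagomir.

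Among the BH3-only genes, BCL2L11, which encodes BIM, had 7 probe sets past the floor and the widest range between the controls. By 1553096_s_at, the brightest, its signals were 1437 in miR-429 mimic cells and 929 in NC mimic cells, and 1329 in antagomir-429 cells and 1467 in NC antagomir cells. By 208536_s_at they were 159.8 and 55.3 on the miR-429 mimic and NC mimic arrays, and 204 and 188 on the antagomir-429 and NC antagomir arrays. The NC mimic array was the lowest of the 4 for these and for 225606_at and 1558143_a_at, and the other 3 arrays lay closer together. The log2 ratios with the mimic were 0.63, 0.78, 0.99 and 1.53 for 1553096_s_at, 225606_at, 1558143_a_at and 208536_s_at, of which the last was 2.89-fold and the third stood just inside 2-fold at 1.99-fold. The remaining 3, 222343_at, 1553088_a_at and 1555372_at, had 0.04, -0.38 and -0.07. With the NC antagomir array as the control, which differs also in sort gate and reagent, the brightest had -0.03. The higher BCL2L11 value with the mimic thus also depends on which control array is used.

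With antagomir-429 the BCL2L11 probe set 1553088_a_at was 2.37-fold higher, with signals of 185 in antagomir-429 cells and 78.2 in NC antagomir cells, while the other 6 lay between -0.46 and 0.12. Its signals in EpCAM-negative cells were 214 in miR-429 mimic cells and 279 in NC mimic cells, so here the NC antagomir array was the one that stood apart. Between the controls, 208536_s_at had 1.77 and 1558143_a_at 1.21, against -1.83 for 1553088_a_at and -1.06 for 1555372_at. The range of 3.60 was wider than in 95.8% of the 24 genes with 7 probe sets. Past 2-fold in both directions there were 71 of 5837 genes with several probe sets (1.22%), BCL2L11 among them. Of the 24 genes with as many probe sets as BCL2L11, 3 were (12.5%).

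PMAIP1 encodes NOXA, a BH3-only protein that binds MCL1 and is induced by p53 and by the integrated stress response, and its 2 probe sets moved together. By 204285_s_at its signals were 716 in miR-429 mimic cells and 1055 in NC mimic cells, and 302 in antagomir-429 cells and 589.8 in NC antagomir cells. By 204286_s_at they were 373 and 466 on the miR-429 mimic and NC mimic arrays, and 188 and 341 on the antagomir-429 and NC antagomir arrays. In both, the antagomir-429 array was the lowest and the NC mimic array the highest. With antagomir-429 the log2 ratios were -0.97 and -0.86, the first 1.96-fold lower and 3.24 times its scatter of 0.30. It was the only member probe set at or past 3 times the scatter in that comparison, where 1.91% of all probe sets were. With median centring it passed 2-fold by a narrow margin. With the mimic the ratios were -0.56 and -0.32, so both treatments lay below their own control, and between the controls they were -0.84 and -0.45. With the NC antagomir array as the control for the mimic the first had 0.28, so that direction depends on which control array is used.

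The promoter of PMAIP1 is shown because it had the largest ratio among members whose probe sets all lay on 1 side of 0. It was also the sole one of the 9 members with a window at hand to hold the motif TGACGT there. This motif is part of the cAMP response element, the site of the CREB and ATF factors, and shorter parts of that element were not searched. The motif searched was TGACGT on both strands (ACGTCA on the other), which overlaps no other motif searched. It occurs in 7.98% of 35116 RefSeq promoter windows of the same 300 bases, a share per window. The 9 members have 15 windows in all, of which 1 held it, so a single match is not out of the ordinary. MCL1 had no window. The window runs from 250 bases before to 50 after the gene start, at chr18:59899746-59900045 on the plus strand of GRCh38.p14, and the match, in capitals, begins 56 bases before that start.
PMAIP1: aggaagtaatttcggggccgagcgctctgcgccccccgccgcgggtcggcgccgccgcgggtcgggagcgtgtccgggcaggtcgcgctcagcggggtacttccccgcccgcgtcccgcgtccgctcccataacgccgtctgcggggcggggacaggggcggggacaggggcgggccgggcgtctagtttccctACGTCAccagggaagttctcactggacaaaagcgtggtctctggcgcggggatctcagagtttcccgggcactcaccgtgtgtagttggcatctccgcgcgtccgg
A match of letters is no evidence that a factor binds there.

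BID, which caspase-8 cleaves to link death receptors to mitochondria, had 3 probe sets. The brightest, 211725_s_at, had signals of 7454 in miR-429 mimic cells and 8714 in NC mimic cells, and 5420 in antagomir-429 cells and 6102 in NC antagomir cells. The antagomir-429 array was the lowest of the 4 for all 3 BID probe sets. The log2 ratios of 211725_s_at, 227143_s_at and 204493_at with the mimic were -0.23, 0.41 and 0.03, and those with antagomir-429 were -0.17, -0.09 and -0.30, small but of 1 sign. Between the controls they were -0.51, -0.11 and -0.21.

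BBC3, which encodes the p53 target PUMA, has only 211692_s_at, the probe set it shares with MIR3190 and MIR3191. Its signals were 173 in miR-429 mimic cells and 312 in NC mimic cells (log2 ratio -0.85), and 215 in antagomir-429 cells and 256 in NC antagomir cells (-0.25). The signal cannot be given to BBC3 alone.

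**Figure D4:**
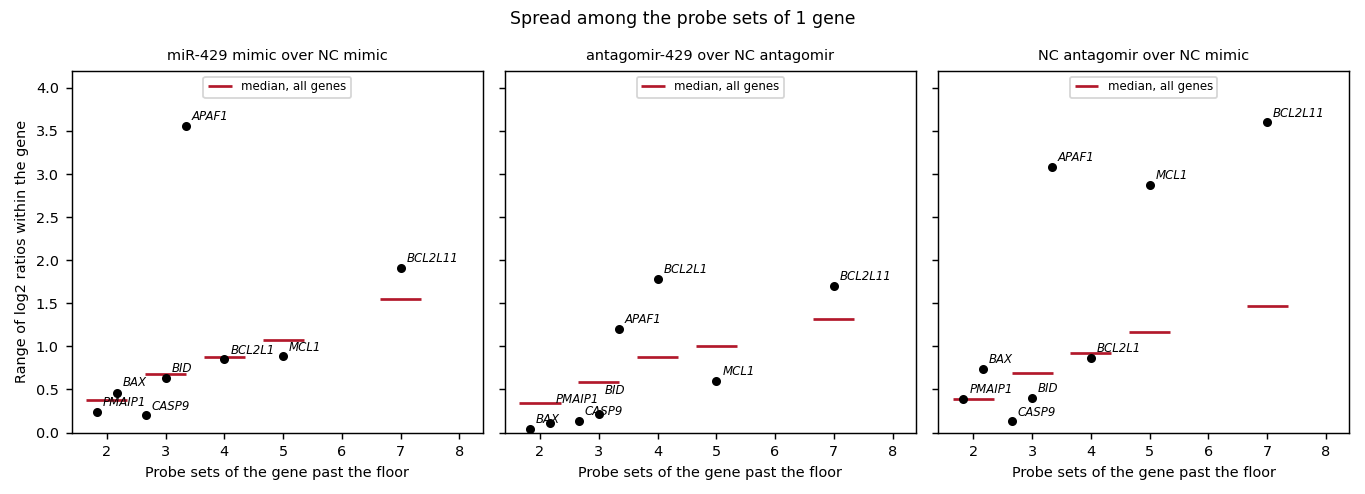
Range of the log2 ratios within a gene (vertical axis, log2 units) for the 8 members with several probe sets past the floor, by number of probe sets (horizontal axis, points offset sideways), with red bars for the median range of all genes with that number. The ranges are those of the measured signals. APAF1 stands at 3.56 with the mimic (at least 3.03 with signals raised to the floor), where the median gene with 3 probe sets had 0.68 (0.64), and CASP9 lies below that median in all 3 panels.

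How far the probe sets agreed differed between members. With the mimic 4 of the 8 members with several probe sets had 1 sign throughout, namely BCL2L1, BAX, PMAIP1 and CASP9, against 54.0% of 5837 genes. With antagomir-429 there were also 4, MCL1, BID, PMAIP1 and CASP9, against 42.8%, and between the controls 3, BID, PMAIP1 and CASP9, against 46.2%. These shares are mostly of genes with 2 probe sets, whereas 6 of the 8 members have 3 or more: with the mimic the share was 63.8% among genes with 2 probe sets, 45.5% with 3 and 34.5% with 4, and with antagomir-429 it was 55.3%, 30.7% and 19.1%. The median range within a gene was 0.74 over the 8 members and 0.54 over all genes with the mimic, 0.41 and 0.48 with antagomir-429, and 0.80 and 0.54 between the controls. Ranges also widen with the number of probe sets. With the mimic the members had 0.35 against 0.38 for all genes with 2 probe sets and 0.63 against 0.68 with 3. They had 0.85 against 0.88 with 4, 0.88 against 1.08 with 5 and 1.91 against 1.55 with 7. Between the controls they were narrower with 3 and 4 and wider with 2, 5 and 7. PMAIP1 and CASP9 were the members whose probe sets kept 1 sign in each comparison, CASP9 only without rescaling, since its antagomir ratios no longer shared a sign with median centring or quantile normalization. Under median centring 2 of 30 probe sets changed sign with the mimic, 3 with the antagomir and 0 between the controls.

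A message repressed by the microRNA would show a negative mimic ratio and a positive antagomir ratio, and those comparisons share no array. This pattern was found in 13 of 30 member probe sets, against 21.9% of all, and the reverse in 7, against 23.6%. The 13 were 3 each of BCL2L1, MCL1 and CASP9 and 1 each of BAX, BAK1, BCL2L11 and APAF1. With median centring 11 showed it, namely 10 of these 13 and 222343_at of BCL2L11. The CASP9 probe sets 210775_x_at and 240437_at and the BAX probe set 211833_s_at dropped out. Probe sets of 1 gene are not independent of each other, and 0 of the 13 was past 2-fold in both comparisons.

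The mimic ratios moved with gene span across the arrays. Among brighter genes in 5 equal bins by span in assembly GRCh38.p14, the median log2 ratio with the mimic went up from -0.24 in the shortest bin (median 4.44 kb) to 0.27 in the longest (124 kb), with antagomir-429 from -0.02 to 0.04, and between the controls from -0.10 to 0.12. Of the members, PMAIP1 (4.31 kb), MCL1 (5.05 kb), BAX (6.92 kb) and BAK1 (7.73 kb) have short spans. CASP9 (33.5 kb), BID (40.5 kb), BCL2L11 (47.5 kb), BCL2L1 (59.5 kb) and APAF1 (90.1 kb) have longer ones. The 3′ to 5′ ratio of the ACTB control probe sets was 2.63 on the miR-429 mimic array and 3.41 on the NC mimic array, and 3.07 and 3.12 on the antagomir-429 and NC antagomir arrays. That of GAPDH was alike on all 4, at 0.918 and 0.915 on the miR-429 mimic and NC mimic arrays, and 0.900 and 0.922 on the antagomir-429 and NC antagomir arrays. The part of span and of RNA quality in the member values was not tested.

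Around the members, other genes of the pathway were read by their brightest probe set. Of 52 listed genes 43 passed the floor, and with the mimic 0 were past 2-fold by their brightest probe set, against 9.01% of all genes. Their log2 ratios ran from -0.97 to 0.89, with a median of -0.15, so some stood just inside 2-fold. The caspases (CASP2, CASP6, CASP8 and CASP10) had the highest group median at 0.34 and the other BCL2 family genes the lowest at -0.31. Of the listed genes, 6 were not analysed here and 3 lay under the floor.

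With antagomir-429, 1 of the 43 was higher and 2 were lower past 2-fold by the measured signals, against a background of 7.25%. Both lower genes, BMF and BCL2L10, were under the floor in antagomir-429 cells, and with signals raised to it 1 was higher and 0 lower, against 4.63% of all genes. DDIT3, which encodes the stress-induced transcription factor CHOP, had signals of 350.1 in antagomir-429 cells and 166 in NC antagomir cells (log2 ratio 1.08), and 243 in miR-429 mimic cells and 283 in NC mimic cells. BMF, a BH3-only protein tied to the cytoskeleton, had 16.7 in antagomir-429 cells and 87.3 in NC antagomir cells, at least 1.65-fold lower. Its signals in EpCAM-negative cells were 96.6 in miR-429 mimic cells and 189.8 in NC mimic cells, so like PMAIP1 it was lowest with antagomir-429 and highest with the NC mimic. BCL2L10, a prosurvival relative, had 32.5 in antagomir-429 cells and 96.0 in NC antagomir cells, at least 1.82-fold lower. Between the controls BMF was the only listed gene past 2-fold, at -1.12 (background 8.32%). BCL2, named here because the family bears its name, had 89.1 in miR-429 mimic cells and 153 in NC mimic cells, and 102 in antagomir-429 cells and 191 in NC antagomir cells, log2 ratios of -0.78 and -0.90. By the median of its 3 probe sets these were -0.78 and -0.46.

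**Figure D5:**
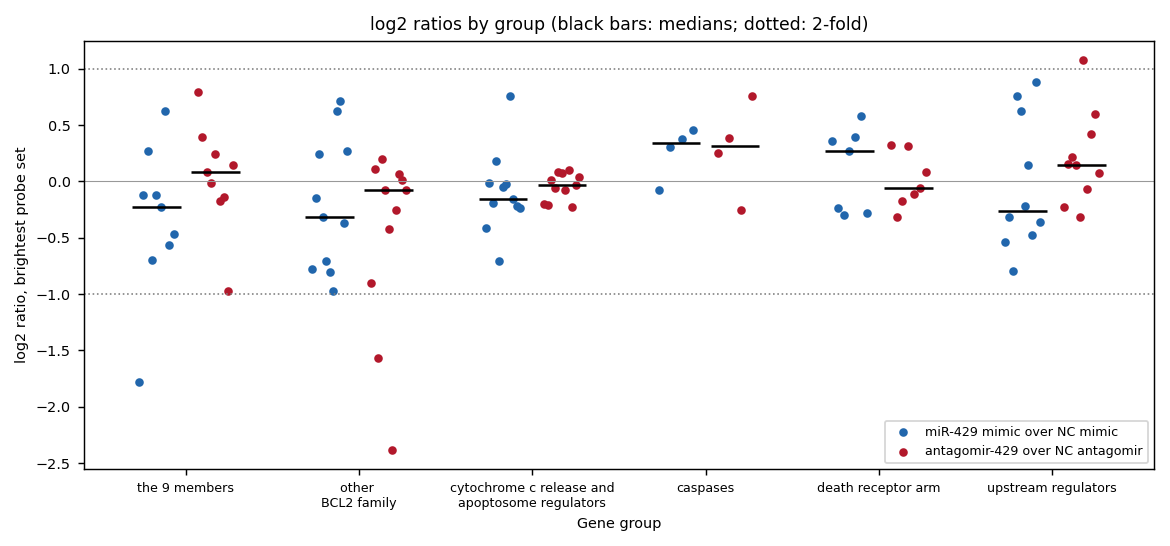
log2 ratio by the brightest probe set (vertical axis) of the 9 members with a probe set of their own past the floor and of 43 other pathway genes by group (horizontal axis), for miR-429 mimic over NC mimic in blue and antagomir-429 over the NC antagomir in red, with black bars for medians. APAF1 at -1.78 is the only blue point past 2-fold, and BMF, BCL2L10 and DDIT3 are the red ones, of which BMF and BCL2L10 pass it only through antagomir-429 signals under the floor.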

How the data were processed

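Total RNA of 4 HCCLM3 samples was hybridised to 1 single-colour Affymetrix 3′ array each, per the labels' protocols. The deposited values are log2 signals that the authors made with MAS5, per the submitters' processing notes. No MAS5 version, target level or detection call was at hand. On the linear scale every array had a 2% trimmed mean of 500.1, and no further scaling was applied.

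The file holds 54675 probe sets, of which 62 controls were left out. The platform annotation gave 1 symbol to 41091 non-control probe sets, several to 1801 and none to 11721. Of the single-gene probe sets 22829 passed the floor, and each of 13180 genes was represented by its brightest. Calls were log2 ratios at or past 2-fold between single arrays, with no pseudocount, no p-value and no standard error, since each group has 1 array. The script was tested on simulated data. Python 3.11.15, pandas 2.3.3 and numpy 2.4.6 were used.

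All 10 members and every one of their probe sets are named. Of the other pathway genes, those past 2-fold are named, up to 6 in each direction of a comparison and 3 with 1 array under the floor. BCL2 is an exception, chosen after its values were seen. The members, lists and rules were chosen with earlier results of these data known. The alternatives tried were quantile normalization, median centring, 3.69 signal units added before log2, a stricter filter (75th percentile), no filter, the other NC array as control, the median over probe sets and, added after seeing the data, signals under the floor raised to it.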

Additional observations from a re-analysis of the deposited data

How the results depend on the processing

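Of 66 recalculated counts and medians of the members, 54 stayed close to the value reported (counts within 1.5 times, medians within the scatter of genes of like signal), as did 185 of 204 single-gene ratios. Part of this was fixed in advance. A gene that passed kept its brightest probe set under both filter changes, so its ratio could not move. Raising signals to the floor could change only the ratios of APAF1. For the mimic median the scatter allowed was wider than the median itself. Its change of sign with the NC antagomir array as control therefore counted as close. With the mimic, the count of lower probe sets was 2 with each array centred on its median, 2 with quantile normalization and 0 with the NC antagomir array as control. With antagomir-429, the count of lower ones was 1 with median centring. With the NC mimic array as its control that count was 5, the count of higher ones 1 and the gene median -0.17. Under the stricter filter, at a signal of 265.6, the counts were 0 higher and 0 lower with the mimic, 0 higher with the antagomir, and 1 higher and 0 lower between the controls, because most probe sets past 2-fold were dimmer than that. The log2 ratio of APAF1 with the mimic became 0.37 with the NC antagomir array as control and 1.22 with the median over its probe sets, and between the controls 0.80 with that median. That APAF1 follows the choice of probe set is shown by the values themselves, and the cause of the other shifts was not tested. Median centring moved the median of all genes with the mimic from -0.00161 to -0.11. With the NC antagomir array as control the gene median with the mimic was 0.15, above 0, where -0.23 was reported. Raising signals under the floor to it, chosen after seeing the data, gave 2 higher probe sets with the mimic and moved no other member count. Adding the shared BBC3 probe set, also chosen then, put the gene medians at -0.35 with the mimic, 0.03 with antagomir-429 and -0.27 between the controls. No paired analysis was possible because each group holds 1 array. Signals near the floor, those of APAF1 above all, limit what can be said.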
